A study of Mus musculus with 3 samples.

Results

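The 39 Hox genes of the mouse were taken as all gene symbols made of Hox, a cluster letter from a to d and a paralogue number, out of 31054 features counted in these libraries. They comprised 11 Hoxa, 10 Hoxb, 9 Hoxc and 9 Hoxd genes. Their levels were described across 22 lineages in 3 wild-type embryos of C57BL/6 x 129 SvEv background, each collected at E8.0 with 0-1 somites (1 label field reads 0-2), stripped of extraembryonic tissue, genotyped as male, dissociated alone and made into 1 single-cell library (Chromium 3' v3). No transgene, deletion or treatment was present in any embryo, so every comparison was between lineages of the same embryos. Levels are given in counts per 1000000 (CPM), counted in unique molecular identifiers (UMIs), 1 for each captured transcript, and relative to all UMIs of the lineage in that embryo. SD is over the 3 embryos.

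Hox genes encode homeodomain transcription factors that give cells of the trunk and tail their position along the head to tail axis. They lie in clusters in which all genes are transcribed in the same direction, and genes at the same place in different clusters form a paralogue group that shares a number. Genes with low numbers, at the 3' end of a cluster, are switched on first and reach far forward, and genes with higher numbers follow later and stay nearer the tail, an order known as collinearity. The genes are opened during gastrulation in the primitive streak and the epiblast around it under Wnt, Cdx and retinoic acid signals, and Hox proteins bind DNA with TALE homeodomain partners of the Pbx, Meis and Pknox families.

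In GRCm38 coordinates the Hoxa cluster spanned chr6:52155590-52260880 on the minus strand, the Hoxb cluster chr11:96194316-96368256, the Hoxc cluster chr15:102921103-103036852 and the Hoxd cluster chr2:74668310-74765142, the last 3 on the plus strand. They extended over 105, 174, 116 and 96.8 kb. Exons of Hoxd3 and Hoxd4 overlapped each other and the gene Gm28230 on the same strand over more than 50% of their bases in GENCODE M21, so the split of UMIs between these 2 genes is uncertain, although none of the last 500 bases of Hoxd3 and 4.40% of those of Hoxd4, where 3' reads fall, were shared. Hoxd4 was listed under 2 identifiers, with 98 and 259 UMIs in the kept cells, which were summed. The overlaps given here were computed only for the identifier with 98 UMIs.

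The 250 bases before the start of 4 genes on which the results below turn are shown from RefSeq (GRCm38.p6), 5' to 3' on the strand of the gene. Hoxb1 was lower and Hoxa7 and Hoxa10 were higher in allantois-like than in lateral-plate-like cells, and Hoxb8 was higher in caudal-epiblast-like than in presomitic-mesoderm-like cells. Capitals mark matches on either strand to TTTATG, a motif of Cdx factors, or to TGATNNAT, a motif of Pbx and Hox proteins bound together. The Hoxb1 stretch, chr11:96365508-96365757 (+), held 1 Pbx-Hox match and no Cdx match. The Hoxa7 stretch, chr6:52218574-52218823 (-), held 2 Cdx matches. The Hoxb8 stretch, chr11:96281655-96281904 (+), held 2 Cdx matches and 1 Pbx-Hox match, with no base shared between them. The Hoxa10 stretch, chr6:52240855-52241104 (-), lies before 1 of the 2 Hoxa10 starts listed and held neither.
Hoxb1: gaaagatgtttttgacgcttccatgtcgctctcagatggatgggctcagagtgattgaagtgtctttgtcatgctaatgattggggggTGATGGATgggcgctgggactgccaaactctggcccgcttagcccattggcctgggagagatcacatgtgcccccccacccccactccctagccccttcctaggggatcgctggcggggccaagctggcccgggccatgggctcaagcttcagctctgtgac
Hoxa7: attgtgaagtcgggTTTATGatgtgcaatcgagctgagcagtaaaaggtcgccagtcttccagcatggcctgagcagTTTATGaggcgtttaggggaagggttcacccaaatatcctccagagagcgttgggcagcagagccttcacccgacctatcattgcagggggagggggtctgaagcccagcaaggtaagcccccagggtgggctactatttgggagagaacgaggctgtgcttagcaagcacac
Hoxb8: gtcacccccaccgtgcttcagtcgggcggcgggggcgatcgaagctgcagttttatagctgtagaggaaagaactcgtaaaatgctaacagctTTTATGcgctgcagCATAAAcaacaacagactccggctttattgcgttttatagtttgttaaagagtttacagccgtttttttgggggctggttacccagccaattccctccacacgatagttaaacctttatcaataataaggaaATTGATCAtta
Hoxa10: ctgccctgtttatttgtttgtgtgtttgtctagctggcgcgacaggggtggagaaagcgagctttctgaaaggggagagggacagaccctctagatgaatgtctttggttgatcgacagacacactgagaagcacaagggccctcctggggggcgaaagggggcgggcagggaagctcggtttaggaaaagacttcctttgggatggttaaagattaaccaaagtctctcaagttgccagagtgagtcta
Promoters were listed for 22 of the 39 genes. The Cdx motif was found in those of 5 genes (Hoxa7, Hoxb8, Hoxd3, Hoxd4 and Hoxd11) and in 10.8% of all 32851 promoters, and the Pbx-Hox motif in those of 4 genes (Hoxa2, Hoxb1, Hoxb8 and Hoxd11) and in 7.68% of all. A match is a description of the letters and not a bound site.

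Of 23533 barcodes, 20352 cells were kept (5493, 7487 and 7372 in embryos 1, 2 and 3), with medians of 26859, 14193 and 15723 UMIs per cell. Embryo 1 thus stood apart by depth, and shares of cells with a UMI are given after each cell was thinned to 5000 UMIs. From 18 to 22 barcodes were shared by each pair of libraries. Marker genes, none of them a Hox gene, placed 16161 cells (79.4%) in 1 lineage, while 4191 were left unassigned because no marker list scored high enough (1928) or 2 lists scored too close to each other (2263). Although extraembryonic tissue had been dissected away, 2212 cells were extraembryonic-endoderm-like, 1350 allantois-like and 770 extraembryonic-mesenchyme-like. Allantois-like cells numbered 263, 453 and 634 in embryos 1, 2 and 3, and the part of dissection in this was not tested. Erythroid-like cells were found in embryos 2 and 3 only, and all other lineages in every embryo.

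The markers did not separate the lineages equally well. Tbx4 and Pitx1, which mark the allantois, reached 117 and 290.1 CPM in allantois-like cells and at most 7.20 and 54.0 in any other lineage. Of the other allantois markers, Spin2c was at 578 and at most 239 elsewhere, while Phlda2 (2429.9 against 2119 in lateral-plate-like cells), Msx1 (294 against 275 in surface-ectoderm-like cells) and Bmp4 (197 against 159 in extraembryonic-mesenchyme-like cells) stood less far apart. Osr1 and Lhx1 were highest in lateral-plate-like cells (89.6 and 103), as was Foxf1 (149 against 125 in allantois-like cells), but the lateral plate markers Hand1 and Bmp4 were higher in allantois-like cells, and the median sum of the 5 lateral plate markers was 814 CPM in allantois-like and 731 in lateral-plate-like cells. Between these 2 lineages, 238 cells were left unassigned. Nkx1-2 was shared by caudal-epiblast-like (212) and caudal-neural-plate-like cells (153), which were told apart by T.

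The summed Hox level was highest in lineages of the posterior end, of which the allantois is an extraembryonic bud. It was 1021, 1190.3 and 1029 CPM in the allantois-like cells of embryos 1, 2 and 3 (mean 1080.2 ± 95.4), 979, 1124 and 838 in caudal-epiblast-like cells (980.5 ± 143) and 838, 878 and 698 in presomitic-mesoderm-like cells (805 ± 94.3). Between neighbours in this order the ranges over embryos overlapped, but within each embryo the order was the same. Lateral-plate-like cells followed with 637, 753 and 644 (678 ± 64.8), caudal-neural-plate-like cells with 516, 729 and 505 (583 ± 126) and somitic-paraxial-like cells with 514, 511 and 494 (506 ± 11.1), again with overlap between neighbours and with 1 order within every embryo. Hindbrain-like cells (469 ± 77.9) lay well above midbrain-like (171 ± 57.5) and forebrain-like cells (187 ± 23.8), and left-right-organizer-like cells reached 456 ± 33.8. Cranial-paraxial-like (195 ± 34.9), cardiac-like (189.7 ± 32.7) and hindgut-like cells (179 ± 27.3) did not differ from forebrain-like cells by more than their spread.

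The lowest levels were 33.6 ± 4.98 in extraembryonic-endoderm-like cells, 16.6 ± 4.88 in erythroid-like cells (n = 2) and 12.2, 11.3 and 15.7 in the foregut-like cells of the 3 embryos (13.1 ± 2.31). Each of the 3 foregut-like values was below each of those of all other lineages except erythroid-like cells. Free RNA in droplets can give UMIs in cells that do not express a gene. The foregut-like level, the lowest mean of the lineages, is used below as a reference from the same libraries. Cells with a UMI of a Cdx gene were kept out of the foregut-like cells, so free RNA may lie above this reference. Forebrain-like, midbrain-like and cardiac-like cells were above the foregut-like level in every embryo, and whether they were above free RNA was not tested.

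**Figure D1:**
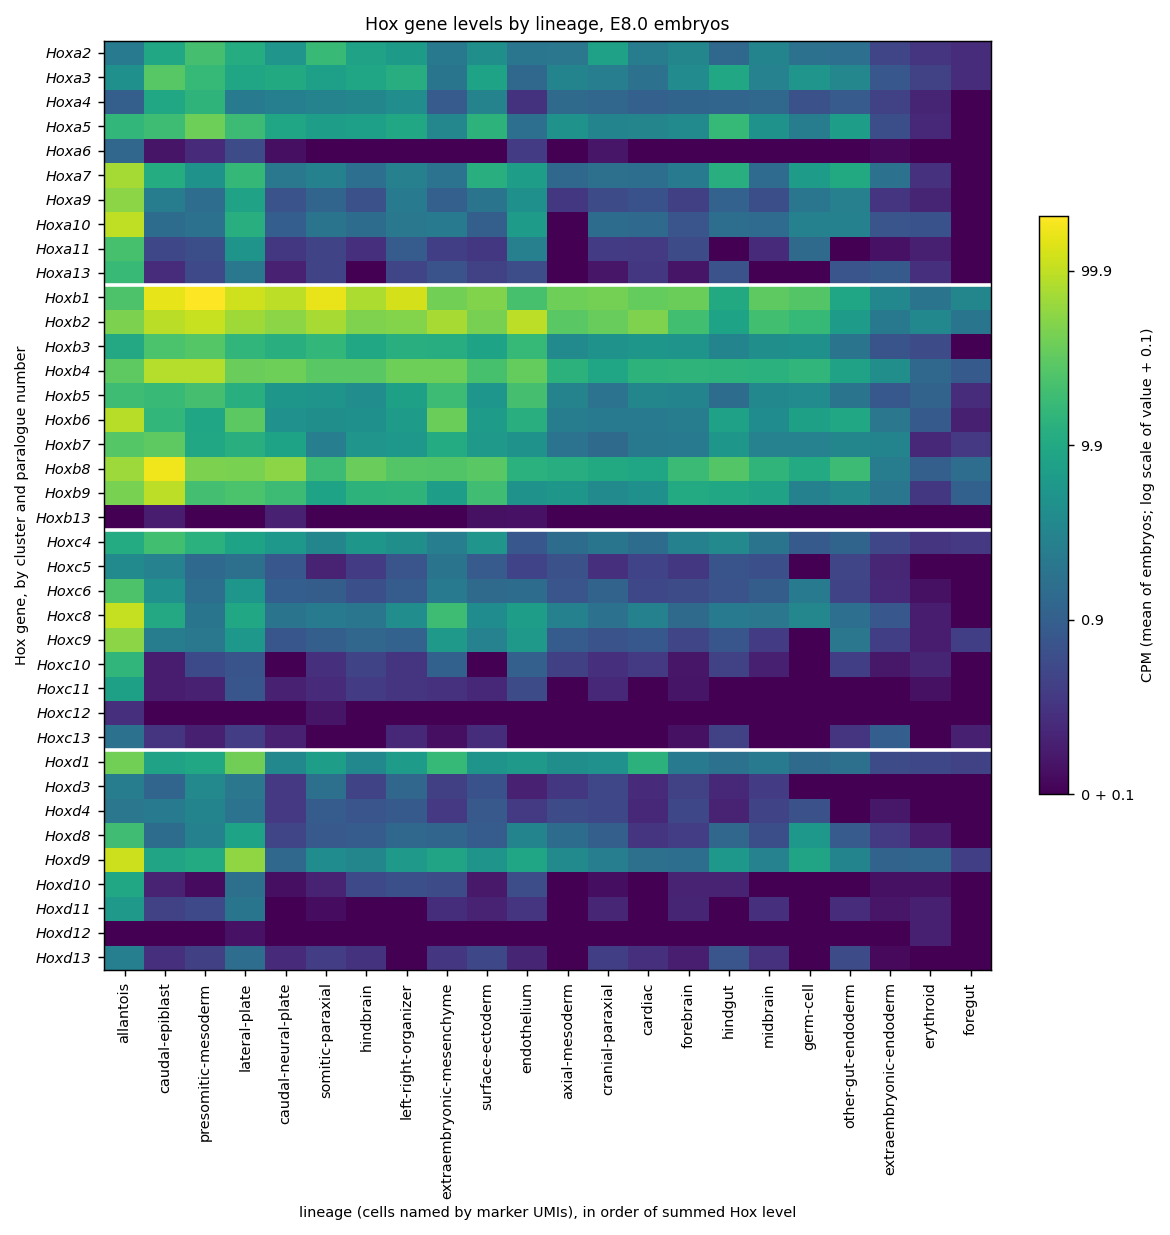
Mean level of 38 of the 39 Hox genes (rows, by cluster and paralogue number) in each of 22 lineages (columns, in falling order of the summed Hox level), as CPM on a log colour scale after adding 0.1. The rows of high paralogue number are bright mainly in the allantois column, where 21 of the 39 genes had their highest mean, and the foregut column is dark throughout.

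Of the 39 genes, 21 had their highest mean in allantois-like cells, 9 in presomitic-mesoderm-like cells, 6 in caudal-epiblast-like cells and 2 in caudal-neural-plate-like cells, and Hoxd12, with 2 UMIs in all, had its highest in erythroid-like cells. The place of the maximum went with the paralogue number. Among the 12 genes of groups 1 to 4, presomitic-mesoderm-like cells were highest for 7, caudal-epiblast-like cells for 3, and allantois-like cells for Hoxd1 alone, at a level shared with lateral-plate-like cells. Among the 11 genes of groups 5 to 8 allantois-like cells were highest for 7, and among the 16 genes of groups 9 to 13 for 13. The exceptions of groups 9 to 13 were Hoxb9 in caudal-epiblast-like cells, Hoxb13 (6 UMIs in all kept cells) and Hoxd12. Whether the maximum stood clear of the next lineage differed between genes: Hoxb4 was 88.1 ± 8.20 CPM in caudal-epiblast-like and 87.2 ± 6.21 in presomitic-mesoderm-like cells, a difference within the spread, while Hoxa10 was 98.0 ± 8.23 in allantois-like and 12.2 ± 1.27 in lateral-plate-like cells.

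The mean paralogue number, weighted by UMIs, summarised this order in 1 value per lineage and embryo. It was 6.96, 7.42 and 7.31 in the allantois-like cells of embryos 1, 2 and 3 (7.23 ± 0.239), above every value of every other lineage. In hindgut-like cells it was 4.80, 4.95 and 4.83 (4.86 ± 0.0821), in caudal-epiblast-like cells 4.13, 4.80 and 3.99 (4.31 ± 0.435) and in lateral-plate-like cells 3.86, 4.41 and 4.42 (4.23 ± 0.317). The last 2 overlapped. Not all lineages are listed here: extraembryonic-endoderm-like cells, with a low summed level, had a higher mean than hindgut-like cells. Gut endoderm cells placed neither as hindgut-like nor as foregut-like overlapped hindgut-like cells. Presomitic-mesoderm-like cells, with 2.73, 3.46 and 2.82 (3.00 ± 0.400), lay below lateral-plate-like cells in each embryo. Caudal-neural-plate-like cells gave 2.07, 3.38 and 2.28 (2.58 ± 0.704) and somitic-paraxial-like cells 1.80, 2.85 and 2.23 (2.29 ± 0.524), the lowest mean of all lineages. Hindgut-like cells thus had a summed level close to that of forebrain-like cells but a higher mean paralogue number (4.86 ± 0.0821 against 3.20 ± 0.553).

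**Figure D2:**
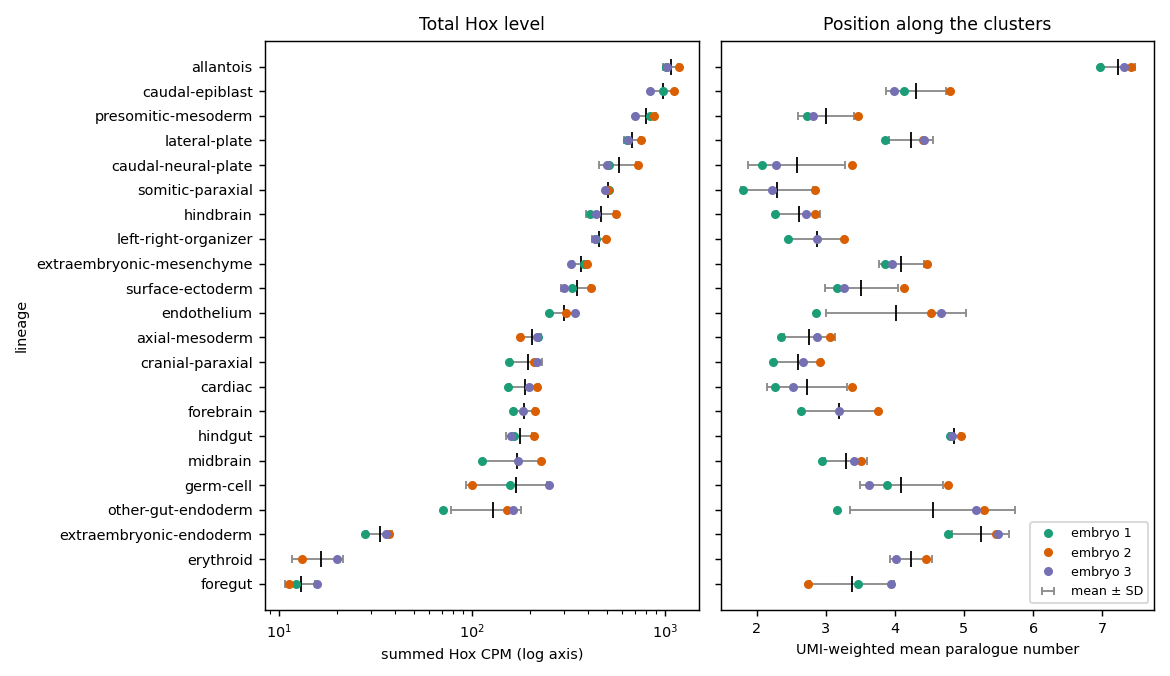
Summed Hox CPM (left, log axis) and UMI-weighted mean paralogue number (right) of each lineage, with a point per embryo and the mean ± SD as a bar. Allantois-like cells are at the right end of both panels, with 3 points between 6.96 and 7.42 on the right panel, and foregut-like cells are at the left end of the left panel.

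By groups of paralogues, allantois-like cells held 188 ± 16.7 CPM of groups 1 to 4, 446 ± 63.1 of groups 5 to 8 and 446 ± 53.3 of groups 9 to 13. Caudal-epiblast-like cells held 581 ± 35.4, 288 ± 78.8 and 111 ± 43.4, and presomitic-mesoderm-like cells 630.3 ± 60.5, 136 ± 41.9 and 38.8 ± 17.9. So the lineage with the highest summed level had the lowest level of groups 1 to 4 among these 3. In lateral-plate-like cells the 3 values were 399 ± 29.7, 158 ± 39.1 and 121 ± 19.9, and in somitic-paraxial-like cells 444 ± 37.0, 44.2 ± 23.6 and 17.6 ± 11.4. As a share of all Hox UMIs, groups 9 to 13 made up 41.3% ± 2.77 in allantois-like, 11.5% ± 1.60 in hindgut-like, 11.1% ± 2.74 in caudal-epiblast-like and 3.48% ± 2.23 in somitic-paraxial-like cells. The shares in lateral-plate-like and extraembryonic-endoderm-like cells lay between those of allantois-like and hindgut-like cells. In foregut-like cells, with few Hox UMIs, the share overlapped that of hindgut-like cells. The share of groups 5 to 8 in hindgut-like (41.2% ± 2.92) and allantois-like cells (41.2% ± 2.43) differed by less than their spread. UMIs of different genes may be captured with different efficiency, so these sums are compared between lineages and not between groups of genes.

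**Figure D3:**
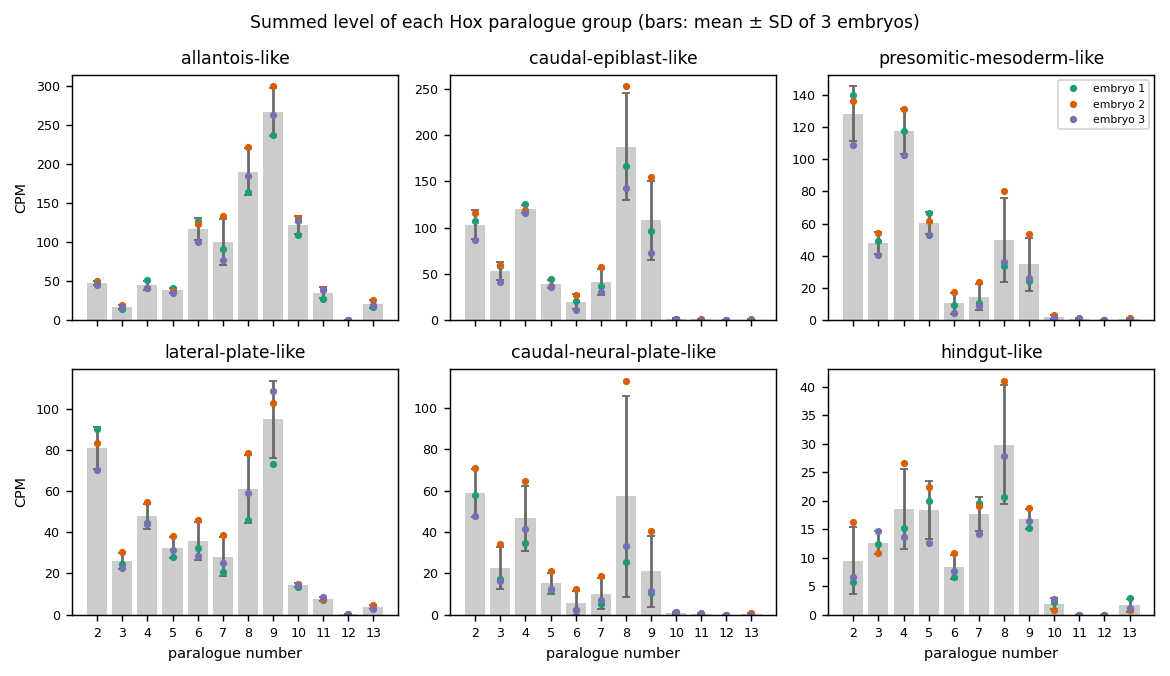
Summed level of each paralogue group from 2 to 13 (CPM) in 6 lineages, with a point per embryo and bars for the mean ± SD; each panel has its own vertical scale. Group 9 is at 267 ± 31.2 in allantois-like and 34.8 ± 16.5 in presomitic-mesoderm-like cells, and group 2 at 48.3 ± 2.56 and 128 ± 17.0.

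Hoxb1, which later marks rhombomere 4 of the hindbrain, was at 245, 184 and 187 in presomitic-mesoderm-like, 199, 117 and 161 in somitic-paraxial-like, 127, 109 and 120.1 in lateral-plate-like and 31.2, 14.7 and 27.0 in allantois-like cells. Hoxd1, of the same paralogue group, did not follow it. It was 43.7, 38.0 and 38.7 in allantois-like and 34.8, 52.3 and 31.9 in lateral-plate-like cells, 16.5 ± 2.96 in extraembryonic-mesenchyme-like cells, and no more than 13.3 ± 0.499 in cardiac-like, 9.68 ± 1.65 in presomitic-mesoderm-like and 8.07 ± 1.07 in caudal-epiblast-like cells. Hoxb2 was 107 ± 16.8 in presomitic-mesoderm-like and 94.6 ± 7.13 in endothelium-like cells, where Hoxb1 was 22.5 ± 11.1. Both genes exceeded 10 CPM in every embryo in 16 of 21 lineages.

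Among groups 5 to 8, the gene with the most UMIs was Hoxb8, a gene of the thoracic spinal cord in later stages. It was 159.7, 229.8 and 139 CPM in the caudal-epiblast-like cells of embryos 1, 2 and 3, 62.2, 74.3 and 62.6 in allantois-like, 25.2, 108 and 31.8 in caudal-neural-plate-like and 30.2, 74.1 and 32.2 in presomitic-mesoderm-like cells. Embryo 2 was highest in all 4 lineages, and in caudal-neural-plate-like cells its value stood far above the other 2. Hoxa7 was 68.7, 106 and 46.0 in allantois-like cells and 12.5, 25.1 and 10.3 in lateral-plate-like cells, again with embryo 2 highest. Hoxb6 was 102, 98.0 and 74.4 in allantois-like and 49.3, 33.4 and 26.4 in extraembryonic-mesenchyme-like cells, and Hoxc8 was 83.2, 127 and 105 and 9.22, 34.0 and 14.9 in the same lineages. Hoxa5, a regulator of the lower neck and thorax, had another order, with 37.5 ± 3.21 in presomitic-mesoderm-like, 19.3 ± 3.51 in caudal-epiblast-like, 18.6 ± 2.91 in lateral-plate-like, 16.3 ± 3.50 in hindgut-like and 15.3 ± 3.57 in allantois-like cells. Hoxa6 had 52 UMIs in all kept cells and was at 1.16 ± 0.382 in allantois-like cells.

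Among groups 9 to 13, Hoxb9 and Hoxd9 had the most UMIs and different places. Hoxb9 was 86.3, 136 and 62.0 in caudal-epiblast-like and 46.0, 43.9 and 43.9 in allantois-like cells. Hoxd9 was 117, 107 and 119 in allantois-like, 44.4, 58.8 and 69.2 in lateral-plate-like and 5.79, 10.9 and 8.80 in caudal-epiblast-like cells. The 2 paralogues were thus highest in different lineages in every embryo. Hoxa10, needed for lumbar pattern and the uterus in later life, was 88.8, 105 and 100.3 in allantois-like, 11.4, 13.7 and 11.6 in lateral-plate-like and 0.873, 1.63 and 1.64 in caudal-epiblast-like cells. Hoxa11 was 16.8, 24.5 and 24.8 in allantois-like and 4.84, 5.40 and 4.92 in lateral-plate-like cells. Hoxa13, which acts in distal limb, hindgut and umbilical artery formation, was 13.6, 21.2 and 15.7 in allantois-like, 2.29, 2.51 and 1.28 in lateral-plate-like and 0.159, 0.326 and 0 in caudal-epiblast-like cells. It had no UMI in 353 foregut-like cells, which allows a share of up to 0.850% for counting error. A gene from the last position of its cluster was thus detected at 0-1 somites.

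The other genes of groups 12 and 13 had few UMIs. In allantois-like cells Hoxc13 was 1.63 ± 0.956 and Hoxd13 2.57 ± 0.159 CPM, whereas Hoxb13 had no UMI in 1350 cells, which allows a share of cells with a UMI of up to 0.222% for counting error alone. Hoxc12 had 6 UMIs and Hoxd12 2 UMIs in all 20352 cells.

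By cluster, allantois-like cells drew on all 4, with 302 ± 64.5 CPM of Hoxa, 360.4 ± 18.2 of Hoxb, 222 ± 42.6 of Hoxc and 196 ± 5.21 of Hoxd genes. In caudal-epiblast-like cells the values were 227 ± 8.53, 692 ± 111, 40.4 ± 22.1 and 21.9 ± 3.31, so that Hoxb genes made up 70.4% ± 1.60 of the Hox UMIs. The Hoxc and Hoxd sums of allantois-like cells exceeded those of caudal-epiblast-like cells in every embryo. Hoxb genes also made up 66.2% ± 1.57 in presomitic-mesoderm-like and 75.1% ± 8.24 in endothelium-like cells. Caudal-neural-plate-like cells divided their Hox UMIs between Hoxa (48.5% ± 7.63) and Hoxb (48.9% ± 6.64), as did hindgut-like cells (42.6% ± 7.37 and 47.4% ± 6.57).

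In single cells thinned to 5000 UMIs, a UMI of any Hox gene was found in 99.2% ± 0.121 of caudal-epiblast-like, 97.7% ± 1.66 of allantois-like, 97.2% ± 0.662 of presomitic-mesoderm-like and 47.3% ± 9.42 of hindgut-like cells. In foregut-like cells, which served as the reference, it was 4.34% ± 0.777. Before thinning, with median depths of 14213 UMIs in allantois-like, 19936.5 in hindgut-like and 15281 in foregut-like cells, the shares were 100%, 82.7% ± 7.62 and 19.5% ± 5.57. Thinning left out 109 cells, at most 27 of a lineage or of the unassigned cells.

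A thinned allantois-like cell held UMIs of 4.55 ± 0.402 different Hox genes, a caudal-epiblast-like cell of 3.90 ± 0.502 and a foregut-like cell of 0.0434 ± 0.00777. A UMI of groups 9 to 13 was found in 77.5, 88.5 and 82.0% of the allantois-like cells of embryos 1, 2 and 3, in 39.7, 55.8 and 26.6% of caudal-epiblast-like, 28.8, 33.3 and 37.3% of lateral-plate-like and 9.26, 20.8 and 10.5% of presomitic-mesoderm-like cells, against 1.20% ± 1.10 of foregut-like cells. Allantois-like cells did not overlap any of these lineages. A UMI of groups 1 to 4 was found in fewer of them, 56.1% ± 1.80 against 95.3% ± 0.967 of caudal-epiblast-like cells. For single genes, Hoxa10 had a UMI in 35.5% ± 3.04 of thinned allantois-like cells, 5.66% ± 0.991 of lateral-plate-like and none of the foregut-like cells (a count of 0 allows up to 0.870%), and Hoxb1 in 10.2% ± 3.66, 41.3% ± 4.28 and 0.485% ± 0.420.

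Low and high paralogues were found together in the same cells. Of thinned allantois-like cells with a UMI of groups 9 to 13, 54.4% ± 1.99 also had one of groups 1 to 4, compared with 64.5% ± 5.65 of those without. In caudal-epiblast-like cells the shares were 94.5% ± 1.06 and 95.8% ± 0.819.

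The 3 embryos differed in the same way in most lineages. Over the 21 lineages present in all of them, the mean paralogue number was lowest in embryo 1 in 18 and highest in embryo 2 in 17, and the level of groups 5 to 8 was highest in embryo 2 in 19. The level of groups 1 to 4 showed no such order, with embryo 1 highest in 8, embryo 2 in 7 and embryo 3 in 6. In caudal-neural-plate-like cells the level of groups 5 to 8 was 44.1, 166 and 54.5 CPM, and in caudal-epiblast-like cells 269, 375 and 221. Embryo 1 was the deepest library. In thinned cells the share with a UMI of groups 9 to 13 was lowest in embryo 1 in 18 of the 21 lineages, and the part of depth in these differences was not tested. The lineages of an embryo share its library, its dissociation and its exact stage, which cannot be told apart with 1 library per embryo.

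Pairs of lineages, 6 in all, were compared by edgeR on UMIs summed per embryo and lineage, 3 against 3, with Benjamini-Hochberg adjustment over 14113 genes and a threshold of 0.05 (adjusted p). Of the 39 Hox genes 34 passed the filter on low counts, and Hoxa6, Hoxb13, Hoxc12, Hoxc13 and Hoxd12 were not tested. Log2 fold changes, with their standard error (SE), stand in parentheses after the levels and are of the first lineage over the second. The SE was derived from the test, as the absolute log2 fold change over the square root of its F statistic. It is not a spread over embryos. The lateral-plate-like sums enter 2 of the comparisons. Where 0 Hox genes are given as called in a direction, 0 also passed an unadjusted p of 0.05 in that direction with edgeR, and 0 were called with DESeq2. Shares of all genes called are of this fit only. Counts of Hox genes from other settings have no such share beside them.

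Allantois-like against lateral-plate-like cells set the bud that will form the umbilical vessels against the trunk mesoderm next to it. Hox genes of groups 9 to 13 and 5 to 8 were higher in allantois-like cells. Those of groups 1 to 4 were called lower in the Hoxa and Hoxb clusters only. In the order of these 3 sets, 10 of 12, 6 of 10 and 0 of 12 tested genes were called higher, and 0, 0 and 6 lower. The median log2 fold changes of the 3 sets were 2.66, 1.22 and -0.61. The filter on low counts pooled all lineages, so genes could enter these counts and medians through allantois-like cells alone. Of groups 9 to 13, Hoxa11, Hoxa13, Hoxc9, Hoxc10, Hoxc11 and Hoxd10 reached 5 CPM in every embryo in allantois-like cells only. Of all genes tested 14.9% were called in this comparison, 8.15% higher and 6.7% lower, around a median of 0.00. Along the Hoxa cluster the fitted change was below 0 from Hoxa2 to Hoxa5 and above 0 from Hoxa7 on, and along the Hoxb cluster it was below 0 from Hoxb1 to Hoxb4 and above 0 from Hoxb5 on, whether or not a gene was called. The Hoxc and Hoxd clusters showed no such change of sign. Of groups 1 to 4, the fitted change was 0.38 for the 1 Hoxc gene and 0.01 to 0.28 for the 3 Hoxd genes, none of them called. Hoxb1, with 31.2, 14.7 and 27.0 CPM in allantois-like and 127, 109 and 120.1 in lateral-plate-like cells of the 3 embryos, fell by 2.29 on the log2 scale (SE 0.22, adjusted p = 7.03e-12), and the 2 lineages did not overlap. Hoxa2, a gene of the second pharyngeal arch (2.31 ± 0.798 against 11.2 ± 0.434, -2.28, SE 0.26, adjusted p = 8.21e-10), was lower too.

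Hoxc10 had the largest rise, with 11.3, 17.0 and 17.0 CPM in allantois-like and 0.404, 0.386 and 1.07 in lateral-plate-like cells (log2 fold change 4.63, SE 0.56, adjusted p = 1.60e-08). Hoxc11 was 5.64, 8.21 and 8.61 and 0.538, 0.386 and 1.07 (3.50, SE 0.53, adjusted p = 3.74e-06), and Hoxc8 was 105 ± 21.7 and 9.36 ± 4.45 (3.50, SE 0.53, adjusted p = 1.39e-06). The values of the 2 lineages, from the same 3 embryos, did not overlap for any of these. The filter on low counts took in all lineages, so a gene could pass it through 1 lineage in which it was high. Hoxc10 and Hoxc11 had means of 15.1 and 7.49 in allantois-like cells and at most 0.964 and 0.665 in any other lineage. Hoxa10 rose by 3.00 (SE 0.37), Hoxa13 by 3.01 (SE 0.41), Hoxa7 by 2.20 (SE 0.45) and Hoxb6 by 1.60 (SE 0.29) on the log2 scale. Hoxa11 rose by 2.12 (SE 0.45, adjusted p = 4.90e-04), a call lost without embryo 3 and with DESeq2, with an adjusted p of 8.35e-11 to 0.32 over the alternatives. The fold of Hoxb2 was -0.62 (adjusted p = 0.0066, 1.38e-05 to 0.08 over the alternatives, the highest without embryo 1) and that of Hoxb3 -0.59 (adjusted p = 0.044), which was not called with DESeq2, with any embryo left out or in thinned cells.

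Hoxa5 (-0.30, adjusted p = 0.49) and Hoxb4 (-0.21, adjusted p = 0.6) did not pass the test. Hoxb8 (0.60, adjusted p = 0.37) and Hoxb9 (0.91, adjusted p = 0.12) passed it only with the embryo as a block, at 0.012 and 9.68e-04, which also raised Hoxb5 and Hoxc5 and lowered Hoxa4 past the threshold. Of the lateral plate markers, Hand1, Bmp4 and the sum of all 5 did not separate these lineages, as given above, and the part of cells placed in the wrong one of them was not tested.

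**Figure D4:**
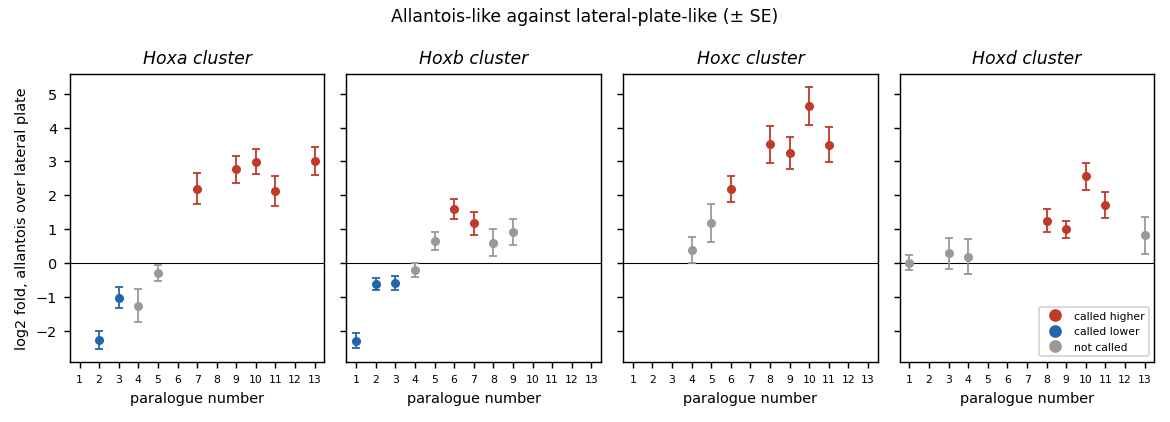
Log2 fold change of allantois-like over lateral-plate-like cells (vertical, ± SE) against paralogue number (horizontal) for 33 of the 34 tested Hox genes, 1 panel per cluster; red genes were called higher, blue lower and grey neither. The 5 blue points lie at paralogue numbers 1 to 3 and the 16 red points at 6 and above.

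Caudal-epiblast-like cells, which feed the spinal cord and trunk mesoderm, were compared with presomitic-mesoderm-like cells, from which somites form. Of groups 5 to 8, 4 of 10 tested genes were called higher and 1 lower, of groups 1 to 4, 1 of 12 higher and 2 lower, and of groups 9 to 13, 1 of 12 higher. In all, 6 Hox genes were higher and 3 lower in caudal-epiblast-like cells, while of all genes tested 3.54% were called higher, 4.01% lower and 7.55% in either direction. The median log2 fold change of the 34 genes was -0.24. Hoxb9 was 86.3, 136 and 62.0 CPM in caudal-epiblast-like and 13, 34.2 and 15.5 in presomitic-mesoderm-like cells (2.25, SE 0.39, adjusted p = 2.73e-05). Hoxb8 was 159.7, 229.8 and 139 and 30.2, 74.1 and 32.2 (2.00, SE 0.41, adjusted p = 3.54e-04). Neither gene overlapped between the 2 lineages, but without embryo 3 Hoxb8 was not called (adjusted p from 2.71e-49 to 0.062 over the alternatives). Hoxc8 was 5.55, 21.8 and 2.53 and 1.78, 1.96 and 1.84 (2.35, SE 0.73, adjusted p = 0.034), a difference that rested on embryo 2 and was not called without embryo 2 or 3 or with DESeq2 (adjusted p from 2.95e-17 to 0.46 over the alternatives).

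The 3 genes that fell were Hoxa2 (9.59 ± 1.16 against 21.7 ± 2.59, -1.18, SE 0.20, adjusted p = 1.86e-05), Hoxa5 (19.3 ± 3.51 against 37.5 ± 3.21, -0.95, SE 0.23, adjusted p = 0.0034, 1.76e-06 to 0.12 over the alternatives, the highest without embryo 2) and Hoxd3 (-1.65, SE 0.46, adjusted p = 0.016), which shares exons with Hoxd4 and was not called with any embryo left out. Between Hoxa2 and Hoxa5 lies Hoxa3, which was higher (0.80, SE 0.24, adjusted p = 0.025) but was not called with any embryo left out, in thinned cells or with DESeq2. Hoxb2 (-0.19), Hoxb3 (-0.24), Hoxb4 (0.01) and Hoxa10 (-0.27) did not pass. With the embryo as a block 14 genes were called in place of 9, the 5 added being Hoxa7 (adjusted p = 0.0088), Hoxb6 (0.012) and Hoxc4 (0.029), which were higher, and Hoxb1 (0.019) and Hoxa4 (0.036), which were lower. Without embryo 2 or without embryo 3, 4 genes were called.

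**Figure D5:**
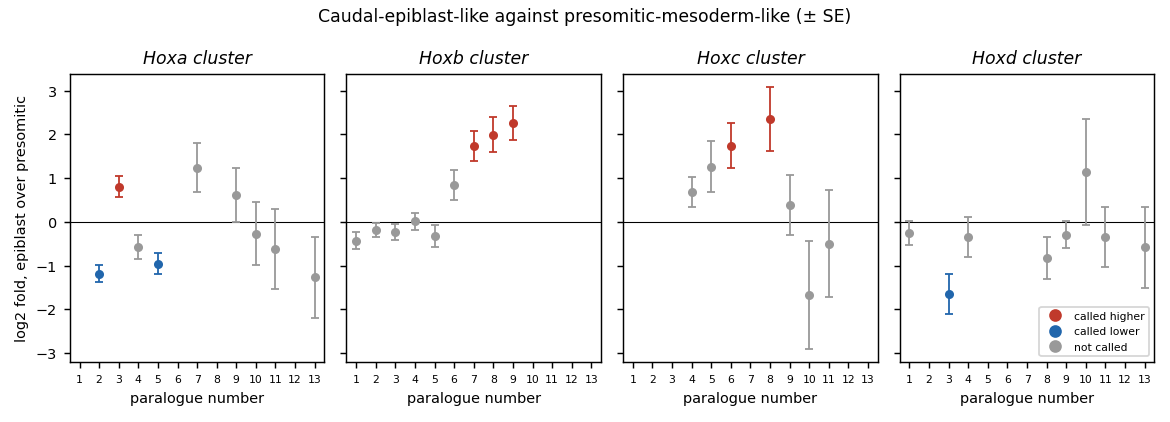
Log2 fold change of caudal-epiblast-like over presomitic-mesoderm-like cells (vertical, ± SE) against paralogue number (horizontal) for 33 of the 34 tested Hox genes, 1 panel per cluster, coloured as called higher (red), called lower (blue) or neither (grey). In the Hoxb panel the points rise from group 6 to group 9, where Hoxb9 reaches 2.25, while in groups 10 to 13 the bars are wide and all points are grey.

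Hindgut-like and foregut-like cells were set by Cdx and foregut markers, so the Cdx genes themselves are not compared. Hindgut-like cells needed UMIs of at least 2 Cdx genes, and foregut-like cells had none. Cdx factors act upstream of Hox genes, so the gate may itself select for Hox UMIs. The 390 gut cells placed in neither lineage were left out, and hindgut-like cells were deeper (median 19936.5 against 15281 UMIs). The part of the gate, of depth and of free RNA in the Hox differences was not tested. Of 34 tested Hox genes 13 were called higher in hindgut-like cells and 0 lower, while of all genes tested 5.33% were called higher, 5.31% lower and 10.6% in all. The 13 comprised 6 of 12 genes of groups 1 to 4, 5 of 10 of groups 5 to 8 and 2 of 12 of groups 9 to 13, and 23 of the 39 genes had no UMI in any foregut-like cell. Such genes were taken at the bound that 3 UMIs give if they had more than 3 UMIs in hindgut-like cells. With all others at the fitted change, the median log2 fold change of the 34 tested genes was 2.69. Hoxa5 was 16.8, 19.5 and 12.5 CPM in hindgut-like cells of the 3 embryos and had no UMI in foregut-like cells, so it was at least 36.8-fold higher against a floor of 3 UMIs over the 3 embryos (adjusted p = 2.48e-09). Hoxa7 was 16.8, 11.6 and 7.64 against none, at least 28.4-fold higher (adjusted p = 0.0028, 7.24e-22 to 0.11 over the alternatives, the highest without embryo 1). Hoxb3, with 3.17, 2.49 and 3.27 against none, was at least 6.58-fold higher (adjusted p = 2.27e-04) but was not called without embryo 1 or in thinned cells (adjusted p from 6.05e-06 to 0.72 over the alternatives).

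Hoxb4 was 13.7 ± 4.39 in hindgut-like and 0.756 ± 0.231 in foregut-like cells (4.14, SE 0.66, adjusted p = 4.41e-06). Hoxb8 was 19.0, 36.1 and 24.5 and 1.99, 0.493 and 1.85 (4.09, SE 1.01, adjusted p = 0.0033, 1.29e-33 to 0.071 over the alternatives, the highest without embryo 3). Hoxb6 had 57 UMIs in hindgut-like and 1 in foregut-like cells, a ratio of 51.1 (95% interval 8.81 to 2054) for counting error alone. Hoxb2 (2.03, adjusted p = 0.0049) was not called without embryo 1 or 2 or in thinned cells, and Hoxb9 (3.57, adjusted p = 0.047) not with any embryo left out, and the same was true of Hoxb1 (1.87, adjusted p = 0.03). Genes of groups 10 to 13 had few UMIs in hindgut-like cells: Hoxa10 was 1.27, 0.415 and 2.73 CPM, Hoxa13 1.27, 0 and 0.546 and Hoxa11 had no UMI in 294 cells. The count of 13 fell to 8 without embryo 1 and to 8 in thinned cells.

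Lateral-plate-like cells were compared with cardiac-like cells, the heart-forming part of the same mesodermal sheet. Of 34 tested Hox genes 30 were higher and 0 lower, against 5.28% of all genes tested called higher, 7.45% lower and 12.7% in all. They were 11 of 12 tested genes of groups 1 to 4, 8 of 10 of groups 5 to 8 and 11 of 12 of groups 9 to 13, and the median log2 fold changes of these sets were 1.66, 2.54 and 3.04, with genes at 0 in cardiac-like cells at their bound. With DESeq2, 27 genes were called higher, 8 of them in groups 9 to 13. Markers did not separate lateral-plate-like from allantois-like cells well, as given above. The part of misplaced allantois cells in these differences was not tested. Hoxd9 was 44.4, 58.8 and 69.2 CPM in lateral-plate-like and 0.853, 3.05 and 0.786 in cardiac-like cells (5.12, SE 0.39, adjusted p = 1.79e-15). Hoxd11 (1.48, 1.54 and 2.57) and Hoxd10 (1.75, 0.964 and 1.93) had no UMI in cardiac-like cells and were at least 8.73-fold and 7.60-fold higher (adjusted p = 3.29e-05 and 1.71e-04), the second not called in thinned cells (adjusted p from 2.43e-05 to 0.14 over the alternatives).

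Hoxb6 rose by 3.71 (SE 0.45) and Hoxa5 by 2.59 (SE 0.33) on the log2 scale. Hoxb2 had the smallest difference of the genes called. It was 78.6, 72.5 and 59.3 and 45.1, 51.2 and 45.3 (0.53, SE 0.17, adjusted p = 0.031), and it was not called without embryo 1 or embryo 2 (adjusted p from 7.34e-04 to 0.33 over the alternatives). Hoxb8 and Hoxb9 (2.23 and 2.33) were not called without embryo 3, and Hoxa13 (3.13) not without embryo 1 or 2 or in thinned cells. Hoxc11 and Hoxd13 were called from 11 and 25 UMIs in lateral-plate-like cells, and neither was called with any embryo left out.

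Somitic-paraxial-like cells were compared with cranial-paraxial-like cells, the parts of the paraxial mesoderm set by somitic and by cranial markers. Tcf15 (253 and 210 CPM) and Foxc2 (138 and 95.5) were in both marker lists. Between these 2 lineages, 185 cells were left unassigned, and the part of cells placed in the wrong one was not tested. Of 34 tested Hox genes 10 were higher and 0 lower, against 2.71% of all genes tested called higher, 2.18% lower and 4.89% in all. They lay at the 3' side: 8 of 12 tested genes of groups 1 to 4, 2 of 10 of groups 5 to 8 and 0 of 12 of groups 9 to 13. Hoxb1 was 199, 117 and 161 CPM in somitic-paraxial-like and 44.0, 32.3 and 49.1 in cranial-paraxial-like cells (1.89, SE 0.21, adjusted p = 1.82e-09). Hoxb3 was 15.6 ± 2.68 against 4.72 ± 0.994 (1.76, SE 0.23, adjusted p = 1.93e-07) and Hoxb4 28.7 ± 6.33 against 8.83 ± 4.02 (1.76, SE 0.26, adjusted p = 2.16e-06). Hoxb2 rose by 1.13 (SE 0.17). Hoxd3 had the largest fitted change (2.41, SE 0.69, adjusted p = 0.028) from few UMIs, 37 and 5, and was not called without embryo 1 or 3. Hoxa5 (1.23, adjusted p = 0.025) was not called without embryo 1 or 2 or in thinned cells. Hoxb8 (18.6 ± 12.6 against 10.3 ± 4.40) and Hoxb9 (8.23 ± 6.80 against 3.69 ± 1.00) did not pass. Without embryo 1, 6 genes were called, and in thinned cells 5.

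In the neural plate, caudal-neural-plate-like cells were compared with forebrain-like cells. Of the caudal neural plate markers, Sox3 was highest in caudal-neural-plate-like cells (130 against 94.6 CPM in hindbrain-like cells). Sox2 was highest in forebrain-like cells (218) and Nkx1-2 in caudal-epiblast-like cells. Between caudal-neural-plate-like and hindbrain-like cells, 169 cells were left unassigned, and the part of cells placed in the wrong lineage was not tested. Of the 34 genes 9 were higher at the caudal end and 0 lower, against 2.25% of all genes tested called higher, 2.52% lower and 4.77% in all. They were 6 of 12 tested genes of groups 1 to 4, 3 of 10 of groups 5 to 8 and 0 of 12 of groups 9 to 13. Hoxb2 was 53.7 ± 10.2 and 20.2 ± 1.05 CPM (1.38, SE 0.19), Hoxb4 38.3 ± 11.3 and 14.1 ± 3.27 (1.40, SE 0.24) and Hoxb3 12.1 ± 4.67 and 5.03 ± 0.787 (1.18, SE 0.24). Hoxb7 was 4.51, 14.4 and 5.62 and 1.76, 2.46 and 2.38 (1.74, SE 0.50, adjusted p = 0.026), and Hoxb8 was 25.2, 108 and 31.8 and 11.9, 26.3 and 15.7 (1.54, SE 0.46, adjusted p = 0.034). For both of these embryo 2 was far above the others, and neither was called without it or without embryo 3, with adjusted p values from 2.33e-07 to 0.5 and from 1.30e-22 to 0.29 over the alternatives. Without embryo 2 the count was 5.

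The lists of other genes of the pathway are given by their counts of called genes. Of all genes tested, 8.15% were called higher and 6.7% lower in the allantois comparison, 3.54% and 4.01% in the epiblast, 5.33% and 5.31% in the hindgut, 2.71% and 2.18% in the somitic, 2.25% and 2.52% in the neural and 5.28% and 7.45% in the lateral plate against cardiac comparison. The first list holds 9 TALE partners of Hox proteins. In allantois-like against lateral-plate-like cells, 5 of 9 genes were lower and 1 higher, with Meis2 at 95 ± 8.59 and 189 ± 26.5 CPM (-1.0) and Pbx3 at 36.8 ± 6.00 and 78.5 ± 2.72 (-1.09). Meis1 was 10.6, 10.8 and 12.6 in allantois-like and 72.5, 63.3 and 50.5 in lateral-plate-like cells (-2.46, adjusted p = 2.00e-15). In caudal-epiblast-like against presomitic-mesoderm-like cells 5 of 9 were lower and 0 higher, with Meis2 at -1.03 on the log2 scale. In hindgut-like cells 1 was higher and 3 were lower than in foregut-like cells. The counts, higher and lower, were 1 and 0 in the somitic, 1 and 1 in the neural and 2 and 1 in the lateral plate against cardiac comparison.

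Among 12 regulators known to act upstream of Hox genes, 2 were higher and 6 lower in allantois-like than in lateral-plate-like cells. Cdx2 was 294, 227 and 292 CPM in allantois-like and 175, 166 and 178 in lateral-plate-like cells (0.64, adjusted p = 0.03), whereas Cdx1 was 30.7, 26.4 and 24.0 and 139, 131 and 123 (-2.29, adjusted p = 1.24e-12). Aldh1a2, which makes retinoic acid, was 10.7, 25.2 and 18.7 and 295, 229 and 167 (-3.66, adjusted p = 1.22e-13), and Nr6a1, an orphan nuclear receptor of the trunk, 51.2 ± 5.81 and 159 ± 11.0 (-1.65, adjusted p = 6.89e-13). Cdx4 was 143, 147 and 113 and 151, 203 and 182 (-0.42, adjusted p = 0.53), so of the 3 Cdx genes 1 was higher, 1 lower and 1 did not pass the test. In caudal-epiblast-like against presomitic-mesoderm-like cells 3 of 10 were higher and 1 lower, with Cdx2 at 0.97 (adjusted p = 8.01e-04) and Aldh1a2 at -3.08 (adjusted p = 7.18e-12), and T and Wnt3a left out because they set the lineage. In the other comparisons the counts, higher and lower, were 2 and 1 of 9 for hindgut, 3 and 2 of 11 for somitic, 5 and 1 of 11 for caudal neural plate and 7 and 1 of 12 for lateral plate against cardiac. With DESeq2 they were 1 and 6 for allantois, 2 and 1 for epiblast, 3 and 1 for hindgut and 8 and 1 for lateral plate against cardiac. The others were unchanged.

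Of 8 Polycomb and trithorax genes, which keep Hox genes silent or active, 0 were called by edgeR or DESeq2 in the hindgut, somitic, epiblast and neural comparisons, and 2, 0, 1 and 0 passed an unadjusted p of 0.05 with edgeR, all of them lower in the first lineage. In allantois-like cells Ezh2 (256 ± 12.7 against 318 ± 5.16, -0.32) and Bmi1 (-0.69) were lower, and Eed was higher in lateral-plate-like than in cardiac-like cells (0.50). Non-coding RNAs of the clusters, of which 7 of 10 listed had a row and 5 were tested, included Hotairm1 of the Hoxa cluster. It was 26.9, 32.6 and 33.7 in allantois-like and 100, 145 and 134 in lateral-plate-like cells (-2.03, adjusted p = 2.96e-07), and 50.2 ± 7.75 in hindgut-like against 2.38 ± 0.501 in foregut-like cells (4.26, adjusted p = 3.31e-07). The RNAs were called higher and lower in 2 and 0 cases for hindgut, 2 and 0 for somitic, 0 and 1 for epiblast, 0 and 3 for allantois, 1 and 0 for neural and 5 and 0 for lateral plate against cardiac. With DESeq2 the counts were 3 and 0 for hindgut, 0 and 0 for epiblast and 0 and 2 for allantois, and the others were unchanged.

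Evx1, the homeobox gene beyond Hoxa13, was 41.7, 31.1 and 27.8 CPM in allantois-like and 30.7, 30.1 and 30.8 in lateral-plate-like cells (0.12, adjusted p = 0.8), where Hoxa13 differed. It was higher in hindgut-like than in foregut-like cells (30.2 ± 1.52 against 1.39 ± 1.26, 4.16, adjusted p = 4.39e-10), where Hoxa13 was not called, and in caudal-epiblast-like than in presomitic-mesoderm-like cells (0.79, adjusted p = 0.015), the last a call lost with DESeq2. Both were higher in lateral-plate-like than in cardiac-like cells (Evx1 by 4.03 on the log2 scale). Evx2, beyond Hoxd13, was not tested.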

How the data were processed

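Each embryo was dissociated separately and its library was sequenced with the Chromium 3' v3 chemistry. Per the labels and the submitters' processing notes, the authors aligned reads with Cell Ranger 3.1.0 to mm10 with EGFP added and deposited a filtered matrix of raw UMI counts, 1 per gene and cell barcode, for each of the 3 embryos. Summed UMI counts were 149341900 to 207961733 per embryo, and 22168 of 23533 barcodes passed the thresholds stated for the study (1500 to 8500 genes, 7500 in embryo 2, and at most 10% mitochondrial UMIs). Cells under 0.5% mitochondrial UMIs and the 6% with the highest doublet scores per embryo (Scrublet as in scanpy 1.11.5, whose own threshold marked at most 1 cell per embryo) were also removed.

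Lineages were set from the mean z-score of log-normalised marker levels. A cell went to the list with the highest score if at least 3 of its markers had a UMI, the score was at least 0.5 and its margin over the next list was at least 0.2, and 1039 assigned cells (6.43%) lay within 0.1 of that margin. Gut cells were divided by Cdx and foregut markers. The Hox genes, gene lists and thresholds were chosen with earlier results of these data known, Hox levels included. UMIs were summed per embryo and lineage (sums over fewer than 10 cells were left out), and pairs of lineages were compared with edgeR 4.0.16 (TMM, filterByExpr, quasi-likelihood test, R 4.3.3) in a fit of all lineages, with Benjamini-Hochberg adjustment over 14113 genes. The alternatives were DESeq2 1.42.0, a block for the embryo, leaving out each embryo in turn, all genes with a UMI in place of filterByExpr, a stricter gate, cells thinned to 5000 UMIs and keeping cells of high doublet score. The edgeR step was run on simulated counts, drawn independently at a fixed dispersion. They held no effect shared by the lineages of an embryo, so this run does not cover such an effect in these data. Lineages of 1 number come from the same animal, and their deviations from the lineage means correlated across genes at 0.058 to 0.399. Limits from a count of 0 (3 UMIs) and 95% intervals cover counting error only.

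Named in full were the member with the most UMIs in each paralogue group, the 3 Hox genes with the largest change each way in a comparison among those called and of 1 sign in every embryo, and up to 4 genes of each other list by UMIs, marker genes left out. Other genes were named after their values were seen. Results of 2 genes, 1 of them a member of the Hox clusters, enter the counts and sums but are not reported here. Gene positions are from GENCODE M21 and promoters from RefSeq; the authors' annotation may differ.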

Additional observations from a re-analysis of the deposited data

How the results depend on the processing

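Of the alternatives to the counts of Hox genes called in the 6 comparisons, 45 lay within 1.5 times the reported count and 9 did not, and no named gene that was called changed its sign. For hindgut-like against foregut-like cells the count was 13, and it became 20 without a filter on low counts and 8 with thinned cells. For somitic-paraxial-like against cranial-paraxial-like cells it was 10, and 5 with thinned cells. For caudal-epiblast-like against presomitic-mesoderm-like cells it was 9, and 14 with the embryo as a block, which moved no other count by over 1.5 times. The block also called Hoxa4 and Hoxc4 for hindgut-like, Hoxa4 for somitic-paraxial-like and Hoxc5 and Hoxc8 for lateral-plate-like against cardiac-like cells. With 1 embryo left out the counts ranged from 8 to 9 (hindgut-like), 6 to 8 (somitic-paraxial-like), 4 to 6 (caudal-epiblast-like), 17 to 21 (allantois-like), 5 to 8 (caudal-neural-plate-like) and 24 to 27 (lateral-plate-like against cardiac-like cells). The causes were not tested, except that thinning and leaving out an embryo reduce the UMIs by construction. Without the share of all genes called in each alternative, a change particular to Hox genes cannot be told from a change in all genes. For single named genes and alternatives 705 results stayed on the same side of the threshold, 53 lost the call and 13 gained one. The mean paralogue number of a lineage moved by less than 1 SD over embryos in 125 results and by more in 5. For the summed Hox level these counts were 123 and 7. Leaving out 1 embryo could not move a mean by 1 SD, so those results say nothing on stability. They were 21, 22 and 22 results of each quantity for embryos 1, 2 and 3. All moves came from thinned cells (2 and 4 results) and from keeping cells of high doublet score (3 and 3). The stricter gate left 21 results of each quantity within 1 SD. Shares of cells moved with thinning in 49 results. Comparisons of shares between lineages thus rest on thinned cells, and shares before thinning are given with their depths only to show this change. Hoxa11 had no UMI in 294 hindgut-like and Hoxa13 none in 353 foregut-like cells, and the smallest difference that this depth could show for genes of groups 10 to 13 was not computed.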
